A study of Homo sapiens and Mus musculus with 20 samples.

Results

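The sirtuins are the NAD+-dependent lysine deacylases, and the human genome holds 7 of them, SIRT1 to SIRT7. All 7 were looked up by symbol in the gene tables of 12 IMR90 RNA-seq libraries, and all 7 were found among the 17554 genes that these tables list. IMR90 is a human fetal lung fibroblast line that is widely used to study replicative senescence, and all 12 libraries were labelled as wild type. The study asked how histone lactylation relates to senescence, and its 20 libraries also include mouse muscle, which was not used here. Each treatment had 2 libraries and an untreated control of its own with 2 libraries. A485, which inhibits the acetyltransferase p300, was set against Control2. MS-275, which inhibits class I histone deacetylases, was set against Control3. Pyruvate, given to senescent cells according to the results text of the study, was set against Control6. The labels name a single cell line and do not say whether 2 libraries of a group came from separate cultures, so p-values measure the spread between these libraries, which may be technical.

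Sirtuins remove acetyl and other acyl groups from lysine and consume a molecule of NAD+ each time, which ties their activity to the NAD+ supply of the cell. They are divided by where they work. SIRT1, SIRT6 and SIRT7 are nuclear: SIRT1 deacetylates p53 and FOXO factors, SIRT6 acts on chromatin and in DNA repair, and SIRT7 is found in the nucleolus, where it acts on ribosomal RNA synthesis. SIRT2 is mostly cytoplasmic and deacetylates tubulin. SIRT3, SIRT4 and SIRT5 are mitochondrial: SIRT3 is the main mitochondrial deacetylase, SIRT4 acts on glutamate dehydrogenase and the pyruvate dehydrogenase complex, and SIRT5 removes succinyl and malonyl groups. Several sirtuins are studied as brakes on ageing. In bulk RNA, a change in RNA per cell cannot be told apart from a change in the share of cells that express the gene.

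The sirtuin genes lie on 6 chromosomes (GENCODE annotation of hg38). The nuclear members are SIRT1 on the plus strand of chromosome 10 (67884656 to 67918390), SIRT6 on the minus strand of chromosome 19 (4174109 to 4182566) and SIRT7 on the minus strand of chromosome 17 (81911939 to 81921323). SIRT2 lies on the minus strand of chromosome 19 (38878555 to 38899862). The mitochondrial members are SIRT3 on the minus strand of chromosome 11 (215030 to 236931), SIRT4 on the plus strand of chromosome 12 (120302316 to 120313249) and SIRT5 on the plus strand of chromosome 6 (13574227 to 13615158). They differ in base composition. The longest transcript of SIRT1 is 40.6% GC and that of SIRT5 is 44.9%, while SIRT2 is at 60.1% and SIRT6 at 64.9%.

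SIRT1 and SIRT4 were the members with the largest changes, and the 250 bases upstream of their starts are shown for that reason (RefSeq, GRCh38.p14, plus strand). The SIRT1 window is chr10:67884406-67884655 and ends at the base before the annotated start. Capitals mark CACGTG, the E-box, which reads the same on both strands.
SIRT1: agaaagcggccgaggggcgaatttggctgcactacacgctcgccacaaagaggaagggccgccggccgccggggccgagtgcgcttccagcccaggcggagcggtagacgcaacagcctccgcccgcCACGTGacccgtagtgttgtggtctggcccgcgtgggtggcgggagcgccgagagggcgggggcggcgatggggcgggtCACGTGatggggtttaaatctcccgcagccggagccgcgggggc
The SIRT4 window is chr12:120302071-120302320, and its last 5 bases lie within the annotated gene. Capitals mark TATAAA on the plus strand and TTTATA, the same motif on the minus strand.
SIRT4: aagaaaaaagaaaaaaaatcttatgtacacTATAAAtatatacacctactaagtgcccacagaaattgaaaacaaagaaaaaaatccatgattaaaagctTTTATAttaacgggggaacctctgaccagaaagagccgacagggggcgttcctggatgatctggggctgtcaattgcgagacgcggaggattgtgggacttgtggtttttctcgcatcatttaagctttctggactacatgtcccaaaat
The windows contrast. That of SIRT1 is 72% GC with 32 CpG dinucleotides, 2 E-boxes and 4 GC boxes (GGGCGG on either strand), and the E-boxes begin 123 and 44 bases before the start. That of SIRT4 is 39.6% GC with 7 CpG dinucleotides, 2 matches to TATAAA, and no E-box or GC box. A further SIRT4 window, 10127 bases from the annotated start, is 47.2% GC with 12 CpG dinucleotides and no match to TATAAA. Among 35116 human windows of this length, 6.34% hold an E-box, 0.535% hold at least 2, 42.6% hold a GC box and 10.7% hold TATAAA. Of the 7 sirtuins, 6 matched a window, and only the SIRT1 window held an E-box. These matches are letters in a window and were not tested as binding sites.

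The deposited values are read counts divided by a size factor for each library, called normalized read counts here. Dividing by the value of 1 read gave 24179065 to 46971227 reads per library, and the sirtuins were covered by 25 reads (SIRT4) to 3328 reads (SIRT1) in a library. All 8 fibroblast markers checked (among them COL1A1, VIM and PDGFRB) were listed in each table, while the blood markers PTPRC, CD3E and HBA1 were not listed in any. The summed fibroblast markers were lower after A485 (4.28e+05 to 5.02e+05) than in Control2 (1.36e+06 to 1.51e+06). EPCAM, an epithelial gene and the single listed marker of 5 of that type, was at 47.7 to 64.2 in Control2 and 177 to 208 after A485. VWF was the single listed endothelial marker of 3 and read 0 in both A485 libraries against 34.2 to 102 in Control2. In the pyruvate experiment VWF was at 104 to 164 in Control6 and 33.4 to 46.2 after pyruvate, and the summed fibroblast markers were at 8.81e+05 to 8.97e+05 and 7.75e+05 to 7.78e+05. The part of these shifts in the results was not tested. In Control6, GC-poor genes stood apart. The median log2 level per kilobase of the lowest of 10 equal bins of genes by GC content minus that of the highest bin was -4.01 and -3.90 in the 2 Control6 libraries. It was between -0.91 and 0.38 in the other 10 libraries. Each experiment was normalized on its own, so levels are set side by side across experiments and tested only within them.

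Per kilobase of exon, SIRT2 was the first or second sirtuin in all 12 libraries. SIRT1 stood first in both A485 libraries and first or second in Control2, at 368 ± 77.3 normalized read counts per kilobase in Control2 (SD, n = 2) beside 330 ± 79.4 for SIRT2. These neighbours in the order did not differ beyond their spread. SIRT6 followed at 272 ± 10.5, then SIRT7 at 130 ± 8.18 and SIRT3 at 116 ± 13.6, which overlapped. SIRT5 (51.4 ± 6.44) and SIRT4 (24.4 ± 2.31) came last. In Control6 the order was another. SIRT1 was the lowest of the 7 in both Control6 libraries, at 9.39 ± 0.501 per kilobase, and made up 0.948% ± 0.0587 of the summed sirtuin level (SD, n = 2), against 28.5% ± 6.58 in Control2 and 24.6% ± 12.3 in Control3. SIRT2 led Control6 with 439 ± 11.7 per kilobase. With the longest transcript as the length, SIRT2 and SIRT6 each ranked from 1 to 3 in all 12 libraries, SIRT1 ranked 3 in Control2 replicate 2, and it was still the lowest in Control6.

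**Figure D1:**
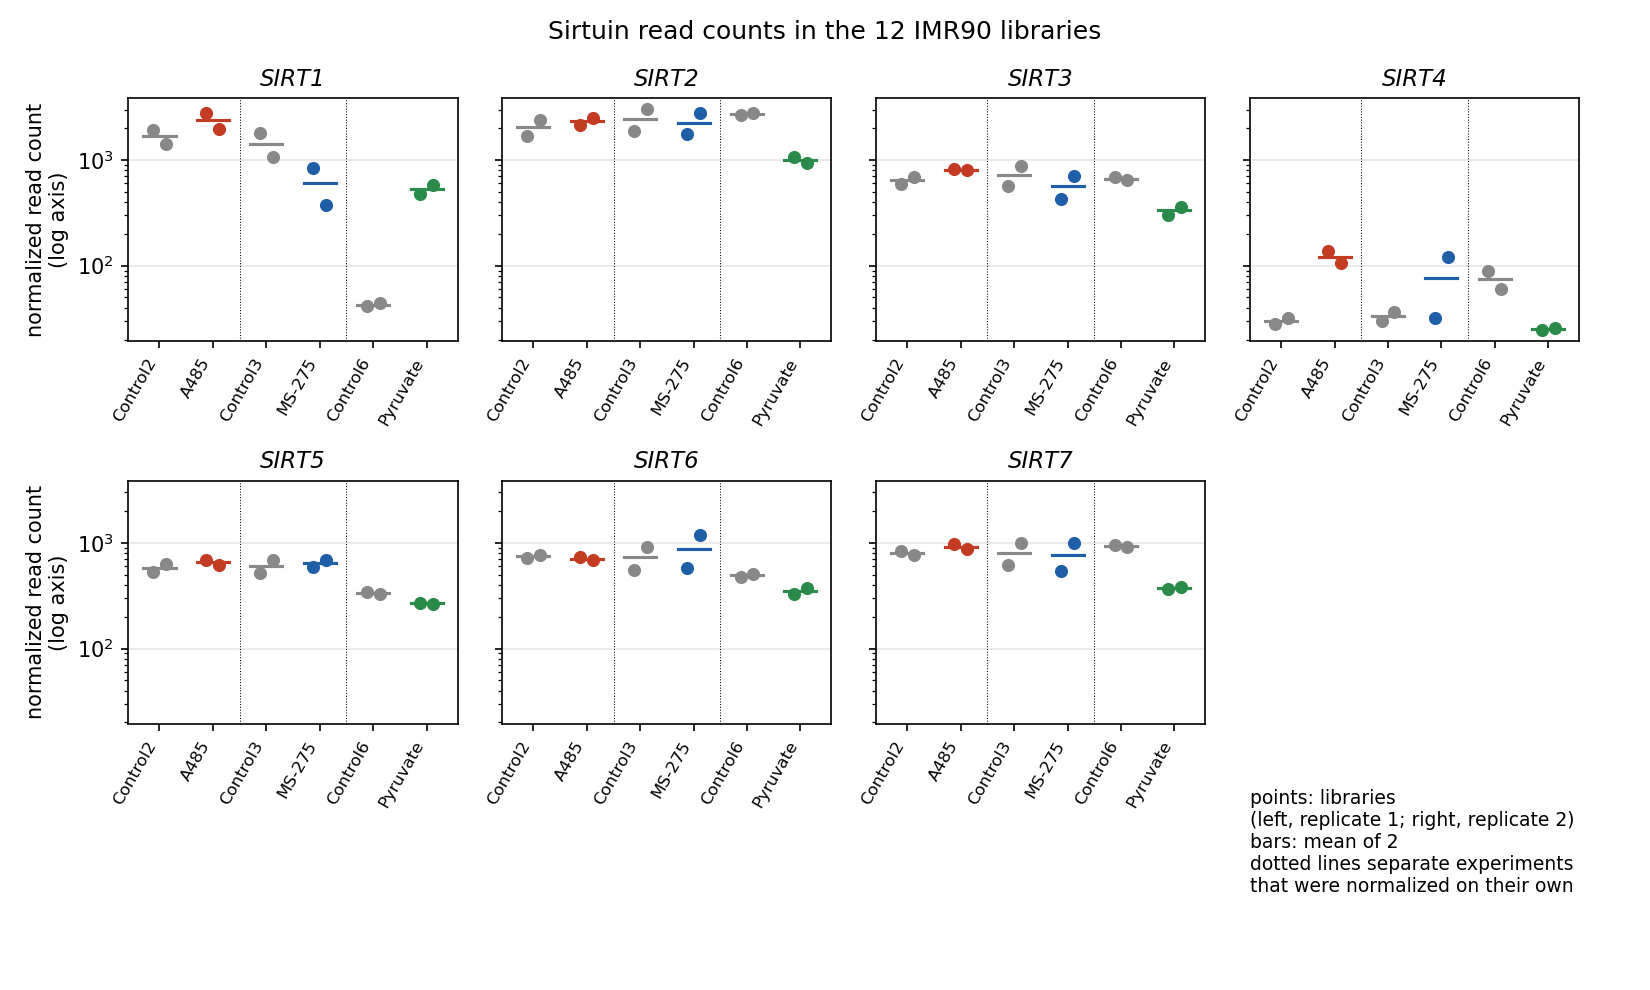
Normalized read count (log axis) of each sirtuin in the 12 libraries, with replicate 1 on the left and replicate 2 on the right of each group, a bar at the mean of 2, and dotted lines between experiments that were normalized separately. SIRT1 lies at 41.3 and 44.5 in Control6 and at 375 or more in every other library, and SIRT4 is higher in both A485 libraries (138 and 105) than in Control2 (27.8 and 31.8).

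After p300 inhibition by A485, 1 sirtuin passed the test. SIRT4 rose 4.08-fold, while the other 6 had log2 fold changes between -0.08 and 0.51 that did not pass. A gene passed at an adjusted p under 0.05 in limma, with Benjamini-Hochberg adjustment over the 16084 genes tested, of which 4.43% passed as higher and 8.21% as lower. With an absolute log2 fold change above 1 as well, these shares were 3.31% and 7.06%, and SIRT4 was again the 1 sirtuin. Log2 fold changes are on the log2(value + 1) scale, where a gene with few reads shows a smaller change than its counts do. Changes given as a fold, such as 4.08-fold, are ratios of the group means of normalized read counts.

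SIRT4, which restrains glutamate dehydrogenase, read 27.8 and 31.8 normalized counts in Control2 and 138 and 105 after A485. Both treated libraries lay above both controls, and did not overlap with them. Its log2 fold change was 1.98 (SE 0.44, 95% interval 0.91 to 3.06, adjusted p = 0.0384). The call needed all 4 libraries: without any 1 of them (each Control2 and each A485 library in turn) the log2 fold change stayed between 1.79 and 2.18, but the adjusted p was between 0.117 and 0.250.

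SIRT1 read 1927 and 1428 in Control2 and 2805 and 1978 after A485. The treated libraries lay just above the controls, with a log2 fold change of 0.51 (SE 0.25, adjusted p = 0.232). SIRT3, the mitochondrial deacetylase, read 589.7 and 696 in Control2 and 813 and 798 after A485 (log2 fold change 0.33, adjusted p = 0.343). SIRT7 read 835 and 764 against 973 and 868 (0.20, adjusted p = 0.537). With SIRT4, these made 4 of 7 members whose groups did not overlap, all higher, where 30.4% of all genes tested were higher without overlap and 30.7% lower. SIRT2 (1698 and 2395 against 2152 and 2510), SIRT5 (529 and 632 against 690.3 and 616) and SIRT6 (727 and 767 against 727 and 681) overlapped with their controls. The interval for SIRT6 ran from -0.58 to 0.41, so changes within those bounds were not detectable here. Summed per kilobase, the 7 members came to 1272 and 1310 in Control2 and 1705 and 1512 after A485.

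After class I deacetylase inhibition by MS-275, no sirtuin passed the test, and none of the 15883 genes tested did (0% higher and 0% lower). That fit did not use the replicate number. With the number as a block in limma, 6245 of these genes passed, among them SIRT1 as lower (adjusted p = 2.58e-06) and no other sirtuin. No label says that libraries of the same number are paired. On simulated data with the spread of this experiment, the fit without the block recovered 0% of genes changed by 1 or 2 on the log2 scale. The simulated libraries varied independently, whereas deviations of same-numbered libraries here correlated at 0.728. The test without the block thus cannot show that a gene did not respond, and the study reports genes lowered by MS-275. At an unadjusted p under 0.05 in this test, 10.9% of all genes and 0 of the 7 sirtuins were counted by limma. The 2 libraries of a group lay far apart (chi-square per gene 397 in Control3 and 456 in MS-275), so the values are given within each replicate number. SIRT1 was the 1 member whose MS-275 libraries lay on the same side of both controls. That is a share of 1 of 7, where 19.5% of all genes tested were higher without overlap and 19.3% lower.

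SIRT1 read 1785 in Control3 and 838 after MS-275 under number 1, and 1060 and 375 under number 2. It was lower within both numbers, by log2 differences of -1.09 and -1.50. Without the block, its log2 fold change was -1.29 (SE 0.54, 95% interval -2.69 to 0.10, adjusted p = 0.502). SIRT3 was also below its control within both numbers, from 567 to 429.9 and from 879 to 707.5, and SIRT2 from 1899 to 1769 and from 3035 to 2755. For both genes, however, the gap between numbers was wider than the gap between treatments. The SIRT2 and SIRT3 differences within a number were between -0.40 and -0.10 on the log2 scale.

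The remaining members did not move together. SIRT4 read 29.7 in Control3 and 31.95 after MS-275 under number 1, but 36.4 and 122 under number 2. A single library thus carried its log2 fold change of 0.91 (adjusted p = 0.789), which was -0.04 without MS-275 replicate 2. SIRT6 read 559 and 577 under number 1 and 908.5 and 1186 under number 2. SIRT7 (624 to 543, and 986 to 994.5) and SIRT5 (524 to 597, and 693 to 687) went opposite ways within the 2 numbers. The number-2 libraries also differed in base composition. The difference between GC-poor and GC-rich genes was -0.89 in Control3 and -0.82 in MS-275 under number 2, against 0.20 and 0.38 under number 1. With each library's dependence on gene length and GC content removed, SIRT1 was at -1.25 (adjusted p = 0.278), SIRT3 at -0.34 and SIRT4 at 0.87, close to the values above.

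**Figure D2:**
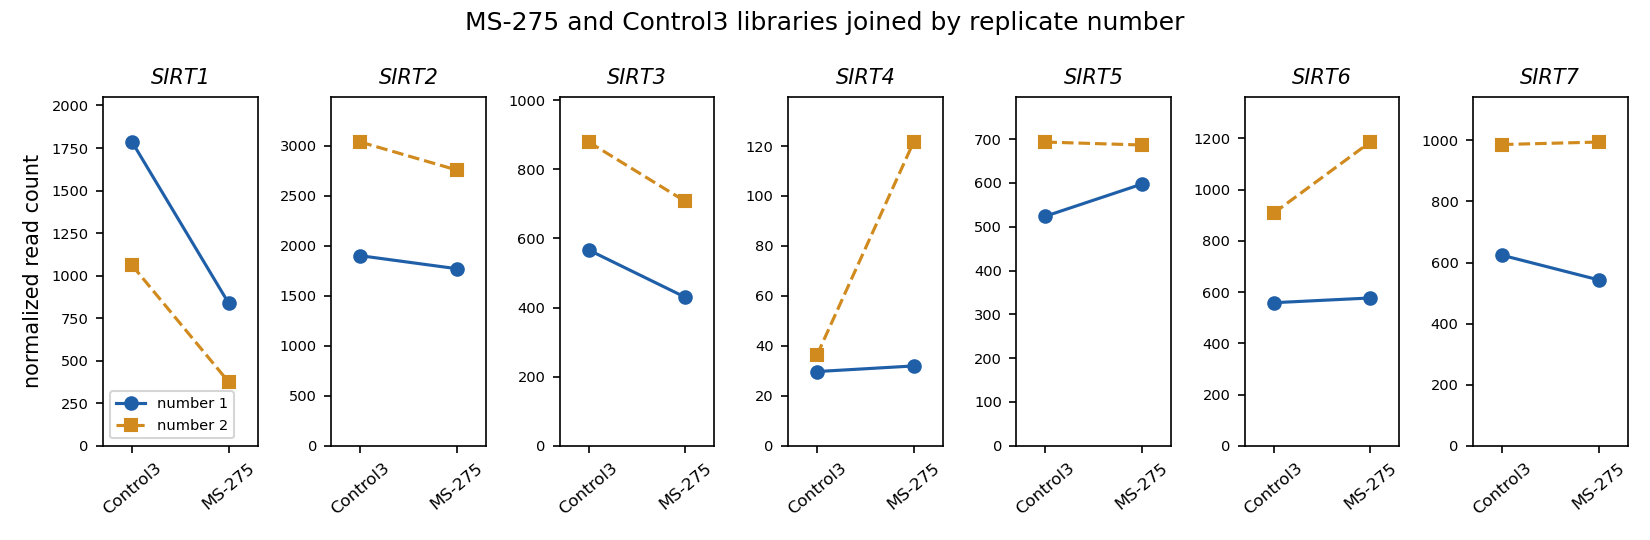
Normalized read count of each sirtuin in Control3 and MS-275, with lines that join libraries of the same replicate number (circles and solid line, number 1; squares and dashed line, number 2), each panel starting at 0 with its own scale. SIRT1 is lower after MS-275 on both lines (838 and 375), SIRT4 differs under number 2 alone, and for SIRT2, SIRT3 and SIRT7 the lines lie further apart than either line moves.

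In senescent cells given pyruvate, the sirtuins split. SIRT1 rose 12.3-fold, SIRT2, SIRT3, SIRT4, SIRT6 and SIRT7 fell, and SIRT5 did not pass the test. Once the trend on base composition described below was removed, SIRT3, SIRT4 and SIRT7 no longer passed. SIRT6 was then higher, and SIRT5 passed as lower. By this test 40.6% of the 12013 genes passed as higher and 40.2% as lower, and 45.2% were higher and 45.3% lower without overlap between groups, so a passing gene was the usual case in this comparison. All 7 sirtuins had groups that did not overlap. With an absolute log2 fold change above 1 as well, 1 sirtuin was higher (SIRT1) and 3 were lower (SIRT2, SIRT4 and SIRT7), where 31% of all genes were higher and 23.1% lower. The changes of all genes followed GC content: across genes, Spearman's rho between GC content and log2 fold change was -0.70, against -0.11 for A485 and -0.02 for MS-275 (genes are not independent replicates). Each member is therefore given beside the median of the genes in its GC bin, and again with the dependence of each library on gene length and GC content removed (called the trend below).

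SIRT1 read 41.3 and 44.5 normalized counts in Control6 and 472 and 586 after pyruvate. The groups lay far apart, with a log2 fold change of 3.59 (SE 0.22, 95% interval 3.09 to 4.08, adjusted p = 4.75e-08). The median of its GC bin was 1.77. With the trend removed the log2 fold change was 2.30 (SE 0.19, adjusted p = 1.61e-05), where the median of all genes was 0.20. Compared with SIRT2 in the same library, the log2 value of SIRT1 differed by -5.98 and -5.93 in Control6 and by -1.19 and -0.68 after pyruvate. The same difference was between -0.75 and 0.38 in the A485 experiment and between -2.88 and -0.09 in the MS-275 experiment. Its low level in Control6, like the balance of GC-poor genes, set those 2 libraries apart from the other 10.

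SIRT2, the tubulin deacetylase, read 2673 and 2776 in Control6 and 1076 and 937 after pyruvate. It fell by 1.44 on the log2 scale (SE 0.09, adjusted p = 5.18e-08), where the median of its GC bin was -1.07. With the trend removed a log2 fold change of -0.33 remained (adjusted p = 0.0217). SIRT7, the nucleolar member, read 955 and 905 in Control6 and 364 and 379.6 after pyruvate, a log2 fold change of -1.32 (adjusted p = 8.36e-07) that was -0.36 with the trend removed (adjusted p = 0.0504). The SIRT7 and SIRT3 bin had a median of -0.83. SIRT6, with the most GC-rich transcript, read 480.3 and 511 in Control6 and 328 and 375 after pyruvate. It fell by 0.50 on the log2 scale (SE 0.14, adjusted p = 0.00662), less than the median of its bin at -1.18. Its direction turned when the trend was removed, at a log2 fold change of 1.001 (adjusted p = 0.0002). It stayed lower with quantile normalization (-0.92) and with equal library totals (-0.19, adjusted p = 0.241). It also missed the threshold without pyruvate replicate 1 (adjusted p = 0.0673).

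The mitochondrial members were all lower in both pyruvate libraries than in both controls. SIRT3 read 686 and 643 in Control6 and 305 and 361 after pyruvate. Its log2 fold change was -0.999 (SE 0.14, adjusted p = 3.75e-05), and -0.10 with the trend removed (adjusted p = 0.626). SIRT4, which had risen after A485, read 89.4 and 60.8 in Control6 and 24.6 and 25.9 after pyruvate, a log2 fold change of -1.51 (SE 0.41, adjusted p = 0.00547). With the trend removed it was -0.58 (adjusted p = 0.178). SIRT5, the desuccinylase, had the smallest log2 fold change of the 7. It read 344 and 329 in Control6 and 272 and 264 after pyruvate, at -0.32 on the log2 scale (SE 0.15, adjusted p = 0.0726). As the GC-poor genes of its bin had a median of 0.88, SIRT5 stood at -1.02 with the trend removed and then passed (adjusted p = 0.00113). So with the trend removed 2 members passed as higher (SIRT1 and SIRT6) and 2 as lower (SIRT2 and SIRT5), where 40.5% of genes passed as higher and 26.2% as lower. Summed per kilobase, the 7 members came to 997 and 985 in Control6 and 555 and 587 after pyruvate.

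**Figure D3:**
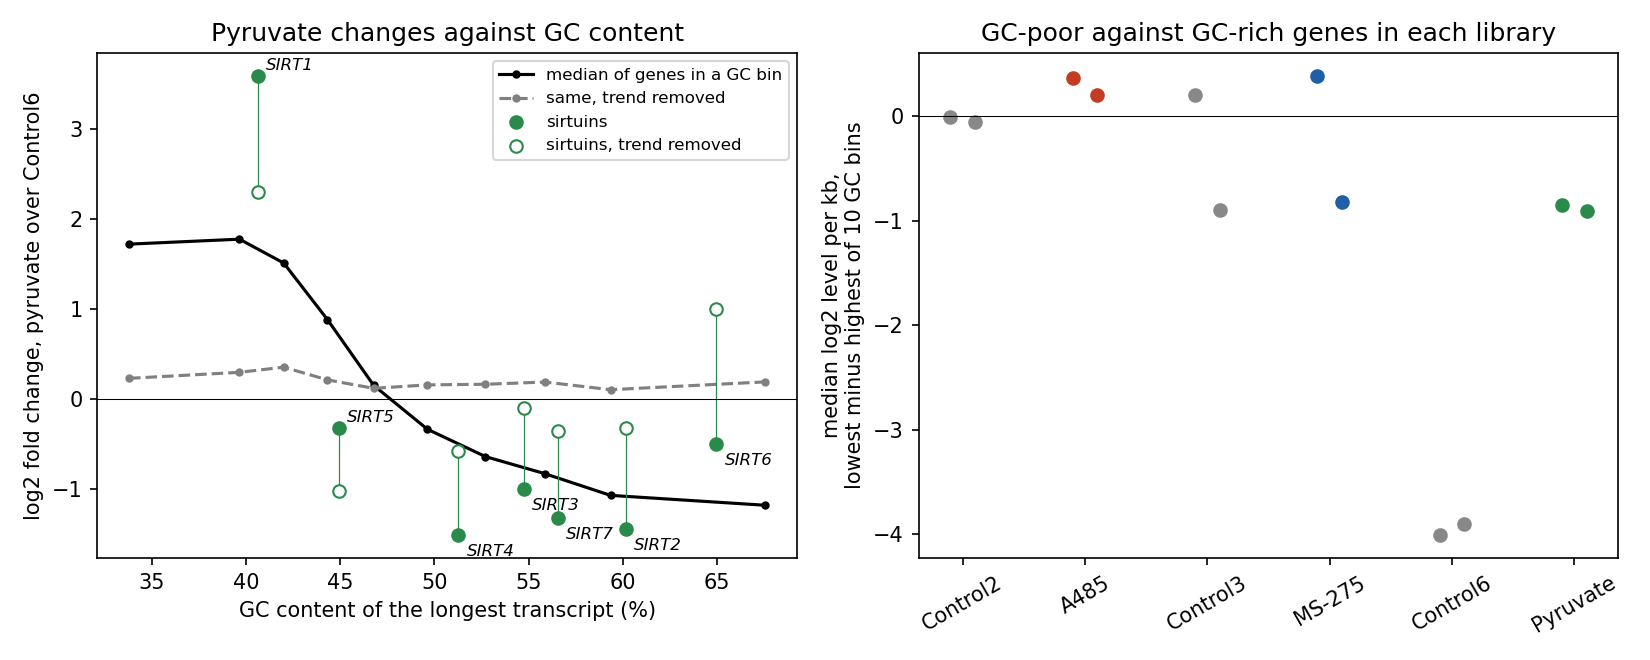
Left, log2 fold change of each sirtuin after pyruvate against the GC content of its longest transcript (filled, as deposited; open, with the length and GC trend removed), with the median of all genes in each of 10 GC bins as a black line and the same after removal as a dashed grey line. Right, median log2 level per kilobase of the lowest GC bin minus the highest in each library. SIRT1 lies above its bin (3.59 against 1.77), SIRT6 moves from -0.50 to 1.001, and the Control6 libraries lie at -4.01 and -3.90 on the right.

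The responses were then compared between experiments by testing the difference of the log2 fold changes. Between A485 and pyruvate the difference passed for 5 of 7 sirtuins, where 65.4% of all genes passed. It was 3.49 for SIRT4 (SE 0.53, adjusted p = 0.000587), which rose after A485 and fell after pyruvate, and -3.08 for SIRT1 (SE 0.33, adjusted p = 9.35e-05). SIRT2 (1.64), SIRT3 (1.33) and SIRT7 (1.52) also passed, each more positive after A485, whereas SIRT5 (0.50, adjusted p = 0.114) and SIRT6 (0.41, adjusted p = 0.141) did not. With the length and GC trend removed, the differences for SIRT2, SIRT3 and SIRT7 no longer passed (adjusted p = 0.0583, 0.153 and 0.0658), those for SIRT5 and SIRT6 did (1.33 and -1.10), and those for SIRT1 and SIRT4 still did. Between MS-275 and pyruvate 2 of 7 passed, where 41.1% of genes did. SIRT1 differed by -4.88 (SE 0.62, adjusted p = 0.00191), and SIRT2 by 1.32 (SE 0.42, adjusted p = 0.0451), a call that was lost when any of 6 of the 8 libraries was left out (all but Control3 replicate 2 and MS-275 replicate 1), as it was with the trend removed (0.23, adjusted p = 0.604) and with equal library totals (0.86, adjusted p = 0.139). Between A485 and MS-275 none of the 7 passed, where 3.81% of genes did. The SIRT1 difference there was 1.80 (SE 0.64, 95% interval 0.30 to 3.30, adjusted p = 0.206).

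**Figure D4:**
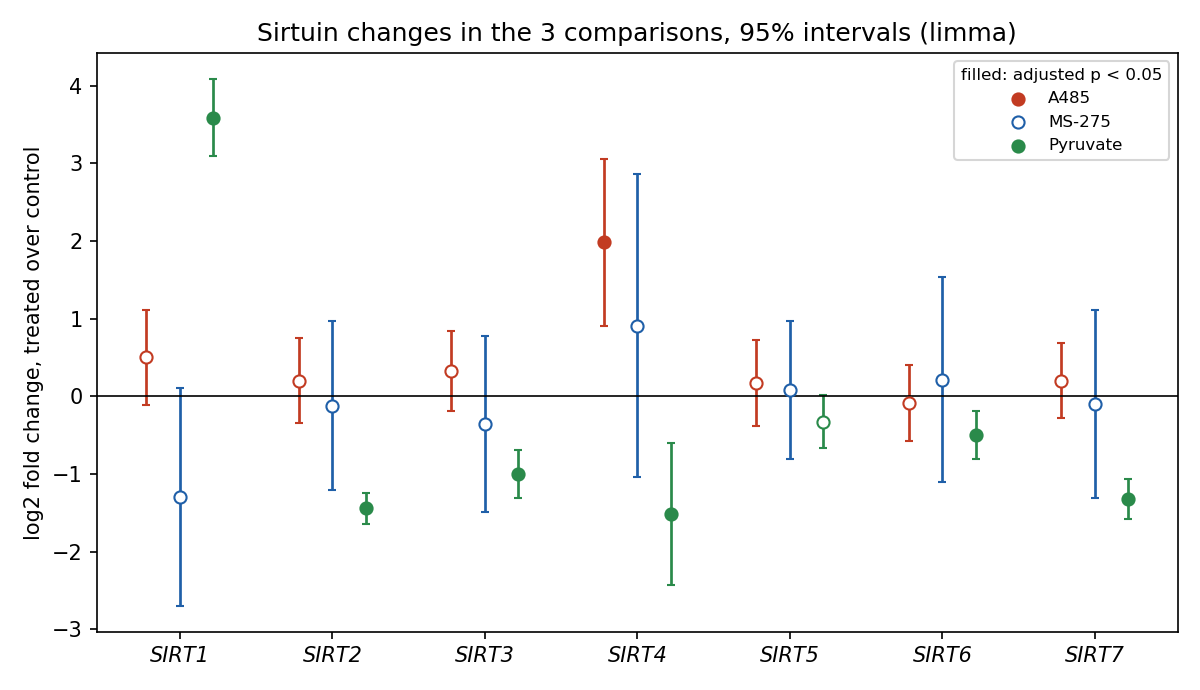
Log2 fold change of each sirtuin over its own control after A485 (red), MS-275 (blue) and pyruvate (green), with 95% intervals from limma and filled points where the adjusted p was under 0.05. SIRT1 after pyruvate (3.59) and SIRT4 after A485 (1.98) lie above 0, 5 pyruvate points lie below 0 and pass, and the MS-275 intervals all cross 0. With the GC trend removed, SIRT3, SIRT4 and SIRT7 after pyruvate no longer passed and the sign of SIRT6 turned.

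Several sirtuins share their locus with another gene, and the setting for strand in counting is not stated, so reads from overlapping genes may not be separable. NFKBIB overlaps SIRT2 on the opposite strand, RIC8A overlaps SIRT3 on the opposite strand, and MAFG overlaps SIRT7 on the same strand. PSMD13, a proteasome gene, starts 35 bases from SIRT3 on the other strand without overlap. After pyruvate these 4 neighbours passed as lower, with log2 fold changes of -0.80 for NFKBIB, -0.81 for RIC8A, -0.89 for MAFG and -0.91 for PSMD13, but with the length and GC trend removed they stood at 0.58, 0.24, 0.15 and -0.52. After A485 none of the neighbours passed. MAFG was nearest, at -0.83 (adjusted p = 0.0578), beside 0.20 for SIRT7. ANKRD24 starts 123 bases from SIRT6 on the other strand and stood at 1.64 after MS-275 (adjusted p = 0.312). SIRT1 had no neighbour within 1000 bases of its start and no overlapping gene. SIRT4 overlaps the end of RNU6-1088P, a small RNA pseudogene, and SIRT5 overlaps ENSG00000261071, a long noncoding RNA on the opposite strand. Neither was matched in the tables.

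The genes whose levels across the 12 libraries were most like each sirtuin were ranked by the root mean square difference of log2 values, each centred within its experiment, over 11989 genes. For SIRT1 they were INTS7 (0.20) and HSP90AA1 (0.24). For SIRT4 they were BHMT2 (0.26) and HSD17B1P1 (0.31). For SIRT2 they were MFSD5 (0.057) and SLC4A3 (0.094), for SIRT3 ZNF576 (0.067) and RSAD1 (0.080), and for SIRT5 CAMLG (0.094) and CTDSPL (0.098). The root mean square variation of the member itself sets what such a difference is worth, and it was 1.16 for SIRT1, 0.87 for SIRT4 and 0.16 for SIRT5. For SIRT6 they were SERPINB6 (0.055) and ME3 (0.077), and for SIRT7 RNF25 (0.057) and RPUSD3 (0.059). All these genes share libraries, depth and the trend on base composition with the sirtuins.

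NAD+ is made by salvage of nicotinamide and from tryptophan, and some enzymes of both routes were tested. Of the tryptophan route, IDO1, TDO2 and KMO were not tested in any comparison, nor KYNU and HAAO in the pyruvate experiment. After pyruvate 2 of 7 tested passed as higher and 4 as lower, where 40.6% of all genes passed as higher and 40.2% as lower (median log2 fold change -0.94, beside -0.01 for all genes). Removing the trend left 1 higher and 2 lower, where these shares were 40.5% and 26.2%. NAMPT, the rate-limiting enzyme of nicotinamide salvage, read 118 and 81.4 in Control6 and 611.5 and 507 after pyruvate and rose by 2.50 on the log2 scale (adjusted p = 6.77e-07), and by 0.96 with the trend removed (adjusted p = 0.00182). NMRK1, a nicotinamide riboside kinase, rose by 0.78 (adjusted p = 0.0199), but was at -0.27 with the trend removed (adjusted p = 0.363). QPRT, of the route from tryptophan, fell by 2.59 (-1.48 with the trend removed), and NMNAT1, the nuclear enzyme of the last step, by 1.39 (-1.70). After A485, KYNU, also of the tryptophan route, fell from 219 and 138 to 30.3 and 32.1, and was the 1 of 10 tested that passed, where 8.21% of all genes passed as lower. NAMPT was at -0.10 after A485 (adjusted p = 0.862) and 0.53 after MS-275 (adjusted p = 0.816), where none of 10 passed.

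Of the 16 tested genes that use or move NAD+, 9 passed as higher and 5 as lower after pyruvate (median 1.01), beside 40.6% and 40.2% of all genes. TNKS2 (3.38) and PARP4 (2.99), of the poly(ADP-ribose) polymerase family, had the largest rises, and PARP10 (-2.84) and NADK (-1.63), the NAD kinase, the largest falls. With the trend removed these were 2.10, 2.32, -1.49 and -0.64, and 8 genes passed as higher and 2 as lower, beside 40.5% and 26.2% of all genes. After A485 a single gene of the 16 passed, where 4.43% of all genes passed as higher and 8.21% as lower. NNMT, which methylates nicotinamide and so removes it from salvage, fell from 2553 and 2403 to 36.2 and 66.8, a log2 fold change of -5.62 (SE 0.35, adjusted p = 0.00128).

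Of 11 regulators of SIRT1, 4 passed as higher and 5 as lower after pyruvate (median -0.11), a share near that of all genes (40.6% and 40.2%). The desumoylase SENP1 rose from 25.5 and 26.0 to 548 and 511, and the kinase DYRK1A rose by 3.07 (1.69 with the trend removed). RPS19BP1, which binds SIRT1 and raises its activity, fell by 1.10 (-0.31 with the trend removed). STK11, a kinase upstream of AMPK, fell by 0.98, but was 0.27 higher with the trend removed (adjusted p = 0.0124). Of the 11, 9 passed as higher and 2 as lower with the trend removed, beside 40.5% and 26.2% of all genes. After A485, HIC1, a repressor of SIRT1 transcription, fell from 2103 and 3225 to 236 and 327 (log2 fold change -3.22, SE 0.29, adjusted p = 0.00327). PRKAA2, a catalytic subunit of AMPK, rose by 1.25 (adjusted p = 0.0400). The other 9 did not pass, where 4.43% of all genes passed as higher and 8.21% as lower.

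Among substrates and partners of the sirtuins, 8 of 19 passed as higher and 9 as lower after pyruvate (median -0.11), beside 40.6% and 40.2% of all genes, and 9 and 4 with the trend removed, beside 40.5% and 26.2%. BUB1B, a mitotic checkpoint kinase that SIRT2 stabilizes, rose by 4.49, and NPM1, a nucleolar protein, rose by 3.68 (2.11 with the trend removed). ACSS2, the acetyl-CoA synthetase, fell by 1.53 (-0.67 with the trend removed), and MLYCD, a target of SIRT4, by 1.42, although MLYCD no longer passed with the trend removed (-0.66, adjusted p = 0.165). After A485, 5 of 23 passed and all 5 were lower, where 8.21% of all genes passed as lower and 4.43% as higher (median -0.32, beside 0.01 for all genes). The largest falls were TUBA1B, a tubulin of the kind SIRT2 deacetylates, by 2.19, and POLR1E, an RNA polymerase I subunit that SIRT7 acts on, by 1.76.

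The zinc-dependent deacetylases, the other lysine deacetylase family include the enzymes MS-275 is aimed at. After pyruvate 3 of 10 passed as higher and 6 as lower, beside 40.6% and 40.2% of all genes (median -0.47, beside -0.999 for the sirtuins). With the trend removed 3 passed as higher and 4 as lower, beside 40.5% and 26.2% (median 0.16, beside -0.33 for the sirtuins). HDAC2 rose by 2.82 and HDAC9 by 1.87, and with the trend removed they were at 1.149 and 0.30 (adjusted p = 0.504 for HDAC9). HDAC11 fell by 2.36 and HDAC3 by 1.22, and with the trend removed they were at -1.18 and -0.57. After A485, HDAC5 fell by 1.25 and HDAC7 by 0.68, and the other 9 did not pass. Of all genes, 8.21% passed as lower and 4.43% as higher there. After MS-275 no gene of any of these lists passed, and none of the 15883 genes tested did. The lists were not compared with the sirtuins by a test.

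**Figure D5:**
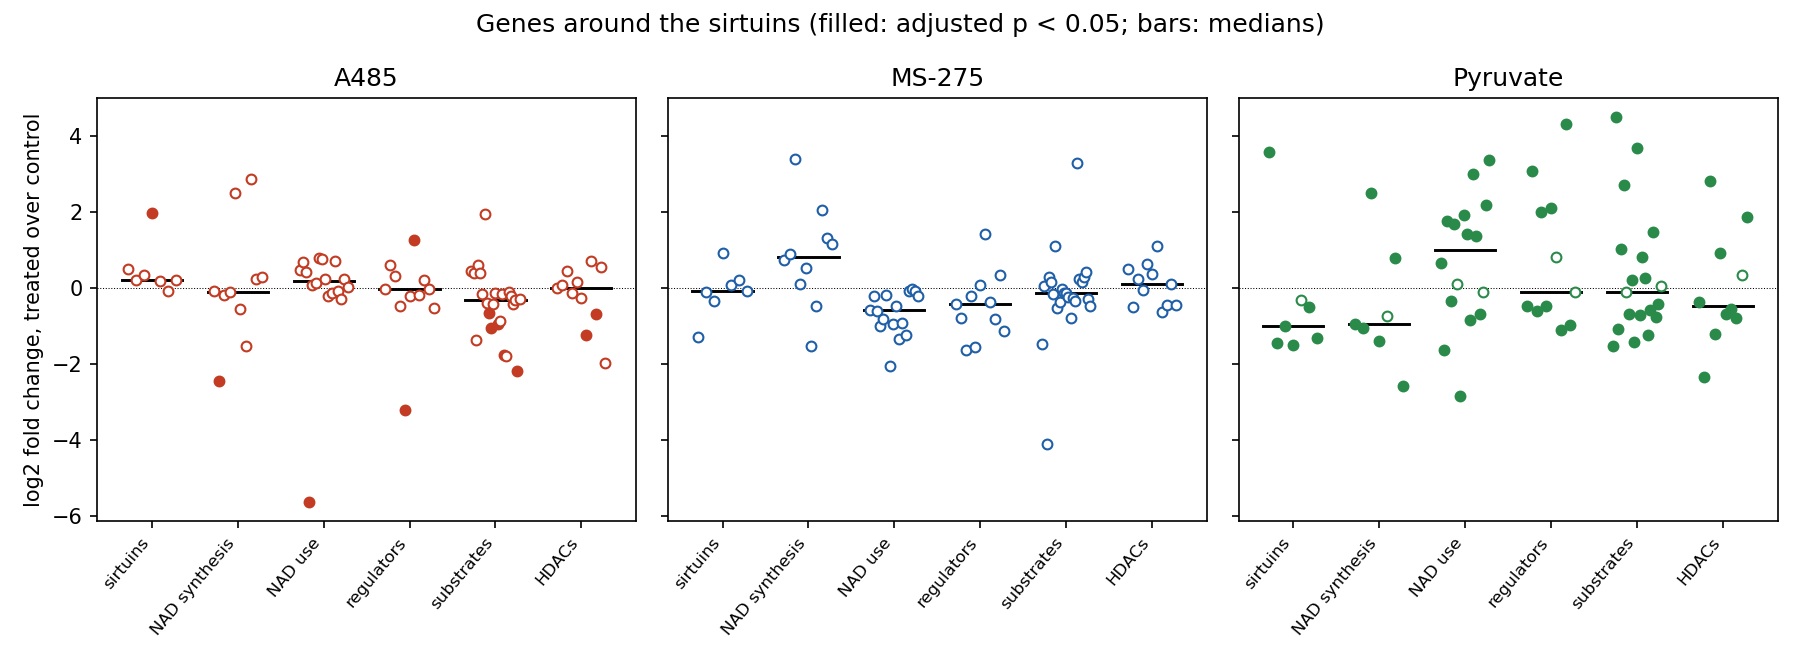
Log2 fold change over control of the sirtuins and of 5 related gene lists after A485, MS-275 and pyruvate, 1 point per gene, filled where the adjusted p was under 0.05 in limma, with a bar at the median of each list. Most pyruvate points are filled in both directions, few A485 points are (SIRT4 at 1.98 and NNMT at -5.62 among them), and no MS-275 point is.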

How the data were processed

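RNA-seq libraries of IMR90 cells were analysed as deposited. The authors trimmed reads with Trim Galore (0.6.10), aligned them to hg38 with HISAT2 (2.2.1), used SAMtools (1.7), counted reads per gene with featureCounts (2.0.6) and normalized with DESeq2 (1.34.0), with versions from the submitters' processing notes. The deposited values are a signal, read counts divided by 1 size factor per library. Annotation and strand setting are not given in the sources used here. Division by the value of 1 read gave whole reads for 100% of values (tolerance 0.01), which set the depths. The recovered reads of the MS-275 and pyruvate experiments did not pass a stricter check, so their depths are estimates and no count test was run on them. Replicates differed by more than sampling noise (chi-square per gene 4.54 to 456).

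Genes averaging at least 10 across the 4 libraries of an experiment were tested as log2(value + 1) in limma (3.58.1, R 4.3.3), using eBayes with its intensity trend and group means alone, and p-values were adjusted by Benjamini-Hochberg over every gene tested. Differences between experiments were contrasts over 8 libraries. The fit within each experiment was tested on simulated data in which libraries varied independently. Positions, exon lengths and GC content came from GENCODE and upstream sequence from RefSeq. The named genes were all 7 sirtuins, NAMPT, up to 2 passing genes per direction, list and comparison with the largest change, neighbours overlapping or within 1000 bases of a sirtuin start, and the 2 most alike genes. The members and lists were chosen with earlier results of these data known. Alternatives covered the pseudocount (0.1, 10), filter (none, 50), scaling, trend removal, the replicate block, edgeR (4.0.16) and DESeq2 (1.42.0) on recovered reads of the A485 experiment, a shared fit, a fold change minimum of 0.58, the longest transcript as length, and leaving out each library. Python (3.11.15), numpy (2.4.6), pandas (2.3.3) and matplotlib (3.10.9) were used.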

Additional observations from a re-analysis of the deposited data

How the results depend on the processing

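With the replicate number as a block, which pairs libraries that share a number, SIRT1 after MS-275 passed (log2 fold change -1.29, adjusted p = 2.58e-06), making 1 sirtuin lower, while 6245 of all genes passed in place of 0; A485 went from 2032 to 3846 genes, and no other sirtuin call within an experiment changed. Deviations of same-numbered libraries correlated at 0.316 (A485), 0.728 (MS-275) and 0.002 (pyruvate), but with 2 pairs and no label the libraries share only a number. For differences between experiments the block and the leaving out of libraries were chosen after seeing the data. The block gave 1 sirtuin between A485 and MS-275 (SIRT1, adjusted p = 0.001155) and 6 between MS-275 and pyruvate, in place of 0 and 2. Between MS-275 and pyruvate 1 passed with equal totals and 1 with the length and GC trend removed. Leaving out each library gave 0 to 0 sirtuins higher after A485 in place of 1, 1 to 4 in the MS-275 and pyruvate difference, 117 to 844 genes after A485 and 0 to 419 after MS-275; with 1 library left in a group, it is assumed to vary like the others. With the trend removed pyruvate gave 2 sirtuins higher and 2 lower, with SIRT6 at 1.001, and 3778 genes above the fold minimum in place of 6503. With a minimum of 0.58, 4 sirtuins in place of 3 were called lower after pyruvate. SIRT6 after pyruvate was not called with equal totals (-0.19, adjusted p = 0.241) or the shared fit (adjusted p = 0.234), and SIRT5 passed with quantile normalization (-0.88) and without the intensity trend (adjusted p = 0.0307).

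With equal library totals the all-gene median was 0.40 (A485), -0.15 (MS-275) and 0.30 (pyruvate), and the share of higher among passing genes from 35.04% to 72.7% and from 50.2% to 58.9%; quantile normalization gave 48.8% for A485, and trend removal 60.7% for pyruvate. Passing genes for A485 numbered 3866 with equal totals, 840 without the intensity trend and 3433 in DESeq2, and for MS-275 573 in the shared fit. SIRT4 after A485 passed under each setting that kept all 4 libraries, at 1.71 to 2.37. The sign turned with equal totals for SIRT6 after A485 (0.31), SIRT5 after MS-275 (-0.0549), SIRT6 between A485 and MS-275 (0.23) and SIRT5 between MS-275 and pyruvate (-0.0399), and with the trend removed for SIRT6 between A485 and pyruvate (-1.10) and SIRT3 (-0.24) and SIRT6 (-0.79) between MS-275 and pyruvate. When libraries were left out, SIRT2 after A485 ran from -0.0436 to 0.45, and after MS-275 SIRT2 ran from -0.46 to 0.22, SIRT3 from -0.71 to 0.00351, SIRT4 from -0.0402 to 1.85, SIRT5 from -0.11 to 0.29, SIRT6 from -0.30 to 0.73 and SIRT7 from -0.53 to 0.34. The A485 and MS-275 differences ran from -0.0132 to 0.66 (SIRT2), -0.11 to 0.29 (SIRT5), -0.82 to 0.22 (SIRT6) and -0.14 to 0.73 (SIRT7). With the longest transcript as length, mean shares of the summed level over the 6 control libraries were 13.3% (SIRT3), 4.58% (SIRT5) and 22.9% (SIRT6) in place of 10.3%, 3.68% and 19.7%. The count tests planned for MS-275 and pyruvate were not run, since the recovered reads passed a stricter check for the A485 experiment alone. The cause of these shifts was not tested. At 2 libraries a group, intervals as wide as those of MS-275 limit what could be detected.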
